A study of Mus musculus with 4 samples.

Results

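The integrated stress response was followed at the transcript level through 10 genes, Atf3, Atf4, Ddit3, Asns, Trib3, Chac1, Sesn2, Psat1, Phgdh and Cth, in mouse embryonic stem cells with a knockout or a conditional knockout allele of the histone demethylase UTX. The members were all probe sets that the platform annotation assigns to exactly 1 gene, that gene being one of these 10, which gave 20 of the 34945 such probe sets on the array and 10 of 18193 genes. Transcript levels came from 4 Affymetrix Mouse Genome 430 2.0 arrays, 1 per cell line. The tested lines were 2 UTX knockout (KO) lines, and they were set against 2 independent lines with a conditional UTX allele (cKO). All 4 lines shared the same culture history, on irradiated fibroblast feeders with LIF (1000 u/ml) and serum (15%), then 2 passages on gelatin to clear the feeders and an overnight culture before Trizol extraction. The sources used here do not name a Cre driver or say whether the conditional allele had been recombined in the cKO lines, and each line may stem from a single clone, so the spread within a group is a spread between lines. The labels do not tell whether cultures of different lines were grown apart in time. The p-values therefore weigh the difference between the groups against the scatter of these 4 arrays within them, and some of that scatter may be technical. With 2 arrays in each group, the scatter of a single gene is poorly known, and part of its variance estimate was drawn from all tested genes.

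The integrated stress response is a pathway by which cells answer amino acid shortage, unfolded protein in the endoplasmic reticulum, haem shortage or viral RNA. Each of these activates a kinase that phosphorylates the translation factor eIF2 on its alpha subunit, which slows most protein synthesis while the mRNA of the transcription factor ATF4 is translated more. ATF4 then switches on genes for amino acid synthesis and uptake, for further transcription factors such as CHOP and ATF3, and for feedback inhibitors. Because ATF4 is controlled to a large part through its translation, the level of Atf4 mRNA is no measure of ATF4 protein, and no protein was measured here.

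ATF4 binds DNA together with C/EBP proteins at a composite element whose core reads TGATGNAA, where N is any base. Windows of 300 bases, from 250 before to 50 after a transcript start, were available for 9 of the 10 genes (RefSeq, GRCm38.p6), in 10 windows since Psat1 has 2. They were searched on both strands for TGATGNAA and for TGACGTCA, the full site of CREB and ATF dimers. The core was found in 4 of the 10 windows, those of Atf3, Asns, Trib3 and Chac1, once in each, and in 3.97% of the 32851 windows of all genes. The 10 genes were listed as members of the ATF4 pathway, so this comparison is a description and no test. TGACGTCA was found in none of the members' windows and in 1.79% of all windows, so no match of one motif overlapped the other. The 4 windows are shown because these genes, alike in holding the core, differed in the data: Trib3 and Chac1 were higher in line 2 than in line 1 in both groups, and Atf3 and Asns were lower. Each is written 5′ to 3′ on the strand of its gene, with the matched letters in capitals. A match describes the letters of a window and does not show that a factor is bound there.
Atf3, chr1:191183284-191183583, minus strand: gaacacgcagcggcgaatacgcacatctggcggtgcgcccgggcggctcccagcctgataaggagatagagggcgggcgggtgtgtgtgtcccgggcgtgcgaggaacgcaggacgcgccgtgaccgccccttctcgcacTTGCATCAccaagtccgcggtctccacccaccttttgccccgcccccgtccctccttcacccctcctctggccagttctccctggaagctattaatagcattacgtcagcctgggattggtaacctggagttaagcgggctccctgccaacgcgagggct
Asns, chr6:7693160-7693459, minus strand: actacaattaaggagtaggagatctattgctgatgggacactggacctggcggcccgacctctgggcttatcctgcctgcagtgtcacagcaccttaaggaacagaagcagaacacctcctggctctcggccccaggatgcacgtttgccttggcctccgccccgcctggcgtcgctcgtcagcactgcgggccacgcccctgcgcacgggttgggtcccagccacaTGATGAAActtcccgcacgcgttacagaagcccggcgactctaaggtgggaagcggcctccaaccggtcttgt
Trib3, chr2:152344011-152344310, minus strand: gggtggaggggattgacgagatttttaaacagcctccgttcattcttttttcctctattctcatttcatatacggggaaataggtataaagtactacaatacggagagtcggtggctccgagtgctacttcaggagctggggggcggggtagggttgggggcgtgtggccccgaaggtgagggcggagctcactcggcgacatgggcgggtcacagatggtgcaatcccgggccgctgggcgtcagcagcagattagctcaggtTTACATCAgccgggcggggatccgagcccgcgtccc
Chac1, chr2:119350992-119351291, plus strand: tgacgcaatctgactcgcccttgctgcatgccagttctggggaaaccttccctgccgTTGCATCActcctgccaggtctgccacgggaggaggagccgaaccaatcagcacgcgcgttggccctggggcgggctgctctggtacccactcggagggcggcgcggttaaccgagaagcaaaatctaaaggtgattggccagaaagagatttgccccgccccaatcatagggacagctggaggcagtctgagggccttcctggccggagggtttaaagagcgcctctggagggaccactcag
In Asns the core lay on the gene's own strand and began 23 bases before the start. In Atf3 and Chac1 the match was on the opposite strand, with the same letters TGATGCAA in both, and began 110 and 193 bases before the start. In Trib3 the match began at base 15 after the start, also on the opposite strand.

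The arrays and labels were checked first. Every array had been scaled to the same trimmed mean, and the median signal was 81.5 and 64.9 in KO lines 1 and 2, against 76.6 and 64.4 in cKO lines 1 and 2. The median was thus lower in line 2 in both groups, and its part in the line ratios of dim genes given below was not tested. Kdm6a, which encodes UTX, read 265 and 198 in the KO lines, against 658 and 415 in the cKO lines (adjusted p = 0.0884 in limma), 2.32-fold lower by the means. A second probe set of Kdm6a was 2.28-fold lower, and the other two stayed below the filter level. The position of these probes relative to the deleted part was not used here. The 8 embryonic stem cell markers on the array, Pou5f1 and Nanog among them, summed to signals of 84950 and 79530 in KO lines and 78200 and 78750 in cKO lines. Single markers went in both directions. Both KO values lay under both cKO values for 2 of the 8, Utf1 and Lin28a. They lay above for 2, Sox2 (0.37, limma adjusted p = 0.0994) and Zfp42 (0.51, adjusted p = 0.102), neither past the threshold. Over all tested genes the shares were 21.2% under and 21.4% above. Markers of feeder fibroblasts were dim but not level, with sums over 9 genes of 1118 and 1190.0 in KO lines against 2851 and 1846 in cKO lines. Both KO values lay under both cKO values for 6 of the 9, beside the share of 21.2% over all tested genes. Of the 9 only 6 passed the filter, and Twist2, which has this order, was not among those that passed. In limma 1 marker of each kind was called, all lower in KO: the stem cell marker Lin28a (-0.66, adjusted p = 0.0346), the fibroblast marker Thy1 (-1.20, adjusted p = 0.0483) and the neural progenitor marker Nes (-1.82, adjusted p = 0.0325). Markers of other lineages summed to 810 and 418 in KO lines and to 1653 and 1180.0 in cKO lines over 7 genes. Of these sums Nes made up 344 and 180.5 in KO lines and 988 and 805 in cKO lines. Only 2 of the 7, Nes and Pax6, passed the filter, and Pax6 overlapped between the groups (0.009, limma adjusted p = 0.995). Both KO values lay under both cKO values for 2 of the 7, Nes and Sox17.

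Of the 10 genes, the amino acid enzyme Cth was lower in KO cells by more than the spread between lines. The transcription factor Atf3 and the leucine sensor Sesn2 had the next largest differences, both negative and neither past the threshold. For Atf4 itself and for Ddit3, Trib3 and Chac1 the groups overlapped. With each gene represented by its brightest probe set, 1 of 10 passed the test across all genes (limma, adjusted p under 0.05), 0 rose and Cth fell. The background share was 2.2% of 10916 genes tested, of which 0.632% were higher and 1.57% lower. Both KO values lay below both cKO values for 6 genes, Cth, Atf3, Sesn2, Psat1, Phgdh and Asns, and the groups overlapped for the other 4. Over all tested genes both KO values were below both cKO values for 21.2%, and above them for 21.4%. The same 6 genes had an unadjusted p under 0.05, against 13.8% of all tested genes in either direction and 7.91% in the lower direction. All 10 log2 fold changes were negative, with a median of -0.32, beside a median of 0.01 over all tested genes, of which 48.6% were negative. The 10 genes were chosen with earlier results of these data known, so these counts beside the shares are a description and no test. The sign was not stable for 4 of the 10. Without cKO line 2, Atf4 was at 0.20, Ddit3 at 0.20, Trib3 at 0.30 and Chac1 at 0.63. With all probe sets of a gene averaged, Atf4 was at 0.36 and Ddit3 at 0.053. That average took in 1 probe set of Atf4 and 1 of Ddit3 below the filter level, where a signal is close to background. The feeder marker sums given above were lower in KO lines too, and so were the lineage sums, mostly through Nes. The part of these markers in the lower values of the 10 genes was not tested. In bulk RNA, fewer cells expressing a gene and less RNA per cell cannot be told apart. The plot of fold changes shows these estimates.

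**Figure D1:**
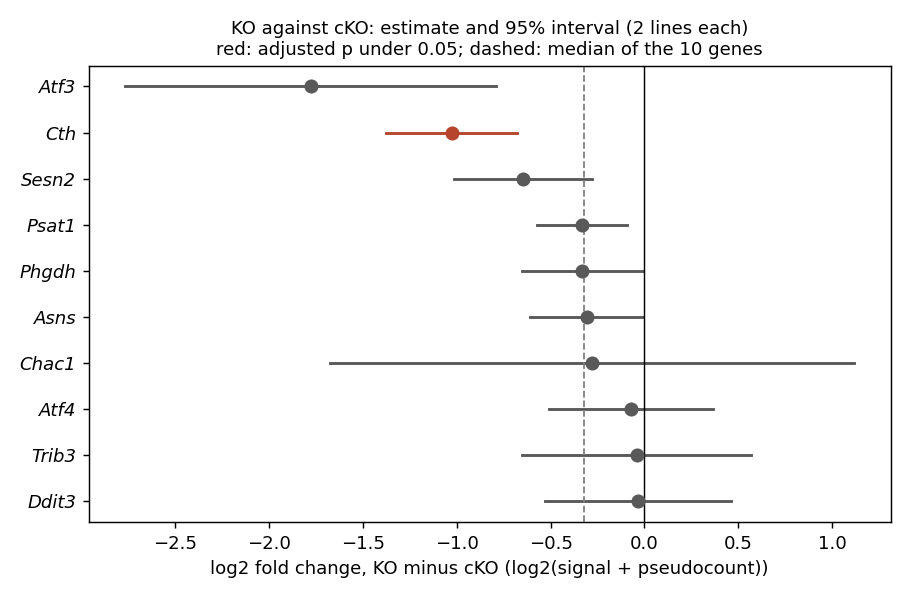
Log2 fold change of each gene, KO minus cKO, on the log2(signal + pseudocount) scale (points, brightest probe set) with the 95% interval from limma (lines), 2 lines per group. The interval of Cth, drawn in red, ends at -0.68 and is the only one of a gene past the adjusted threshold, while the intervals of Chac1, Atf4, Trib3 and Ddit3 span 0.

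The regulators are taken first. ATF4 is the transcription factor at the centre of the response. The brightest Atf4 probe set read 8072 and 9722 in the KO lines, against 7700.3 and 11292 in the cKO lines. Both KO values lay between the cKO values, and the means were 8897 ± 1167 in KO and 9496 ± 2540 in cKO (SD, n = 2 each). In limma the log2 fold change was -0.07 with a 95% interval from -0.51 to 0.36 (adjusted p = 0.921), which leaves room for a modest change in either direction. The Atf4 probe sets disagreed. The second one, of a type whose probes can also match other transcripts (an "x" in its name), read 2384 and 2977 in KO lines and 1720.5 and 2129 in cKO lines. Here both KO lines were above both cKO lines, by 0.48 on the log2 scale (SE 0.18). In limma with every probe set tested on its own, where 1.27% of probe sets were called, its adjusted p was 0.344. The third stayed between 10.9 and 35.1 on all arrays, below the filter level of 77.7, where a signal is close to background.

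Ddit3 encodes CHOP, a transcription factor that ATF4 induces and that takes part in cell death under lasting stress. Its brightest probe set read 386 and 357 in the KO lines, against 324 and 447 in the cKO lines. The KO pair fell inside the cKO pair, at 372 ± 20.3 in KO and 385 ± 87.0 in cKO (SD, n = 2 each). Its log2 fold change was -0.03 (95% interval -0.53 to 0.46, limma adjusted p = 0.972). The other Ddit3 probe set was below the filter, at 23.9 to 52.8.

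Atf3 encodes a transcription factor induced by ATF4 and also, as an early response gene, by many other stimuli. It lies at chr1:191170296-191183333 (GRCm38.p6) and has 1 probe set. Atf3 read 119.9 and 56.2 in KO lines 1 and 2, against 392 and 221 in cKO lines 1 and 2. Every KO value was under every cKO value, and line 1 was above line 2 in both groups. The means were 88.1 ± 45.1 in KO and 306 ± 121 in cKO (SD, n = 2 each), 3.48-fold lower in KO. Its log2 fold change of -1.78 (SE 0.42, 95% interval -2.76 to -0.79) had the largest size of the 10 but missed the threshold in limma (adjusted p = 0.0963). KO line 2 lay below the filter level, so the size of the difference is uncertain. Atf3 passed when the arrays were centred on their medians, at -1.83 (adjusted p = 0.00172). Leaving out an array leaves 1 in its group, so that the spread comes from the other group and from the trend over all genes, and the lone line is assumed to vary alike. On that footing Atf3 also passed with KO line 1 left out, where the remaining KO value is below the filter level, at -2.29 (adjusted p = 0.00108), and with cKO line 2 left out, at -2.18 (adjusted p = 0.0249). Leaving out cKO line 1 gave -1.37 (adjusted p = 0.239), and leaving out KO line 2 gave -1.26 (adjusted p = 0.0655), neither past the threshold.

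Values of feeder markers and immediate-early genes are given beside Atf3, since the first were lower in KO lines and the second lower in line 2, and their part in its difference was not tested. The summed feeder fibroblast markers, given above, were lower in KO lines, highest in cKO line 1 and nearly level between the KO lines. Atf3 was lower in KO lines, highest in cKO line 1 and 2.13-fold apart between the KO lines. Immediate-early genes, which answer growth signals and stress within minutes, were mostly lower in line 2 than in line 1, as Atf3 was. Egr1 read 1560 and 423 in KO lines 1 and 2, against 2191 and 903 in cKO lines 1 and 2. Fos read 306 and 102 in the KO lines, against 338 and 132 in the cKO lines. Neither passed in limma (Egr1 -0.79, adjusted p = 0.678, and Fos -0.25, adjusted p = 0.915), and both overlapped between the groups. Of the 10 tested immediate-early genes, 9 were lower in line 2 than in line 1 in both groups, and 37.3% of all tested genes were. Egr1 and Fos were picked as examples after their values were seen.

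**Figure D2:**
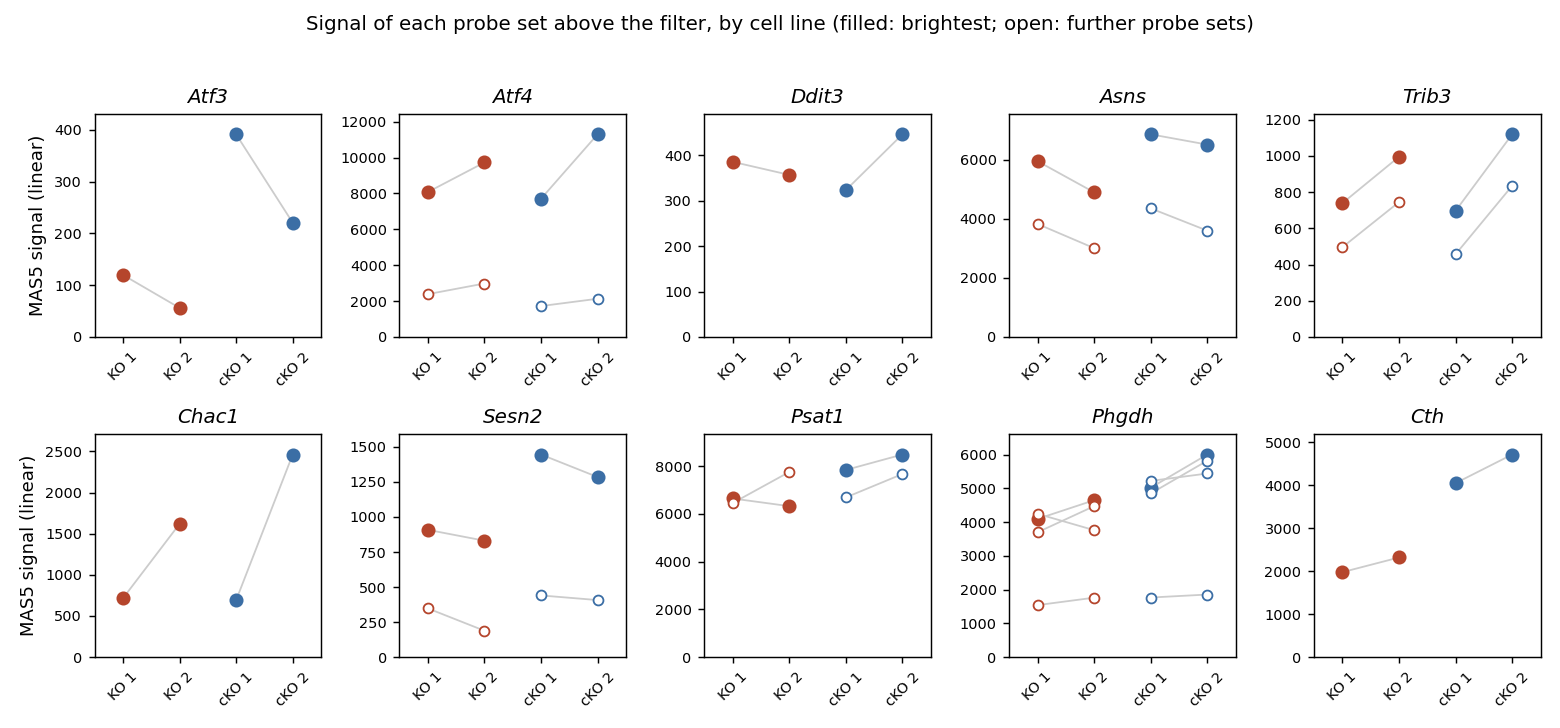
MAS5 signal (linear axis from 0) of the 18 probe sets above the filter, in one panel per gene, for KO lines 1 and 2 (red) and cKO lines 1 and 2 (blue). Filled points are the brightest probe set of the gene, open points its further probe sets, and grey segments join lines of a group. Cth, Sesn2 and Atf3 show both KO lines under both cKO lines, and Chac1 shows line 2 above line 1 in each group.

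Of the inhibitors and effectors downstream of ATF4, Sesn2 encodes Sestrin2, which senses leucine and restrains the growth kinase mTORC1, and is induced by ATF4 and by p53. Its brightest probe set read 908 and 831 in KO lines, against 1446 and 1285 in cKO lines. Both KO lines lay clearly under both cKO lines, at 869.5 ± 54.8 in KO and 1365 ± 114 in cKO (SD, n = 2 each), 1.57-fold lower in KO. On the log2 scale the difference was -0.65 (SE 0.16, 95% interval -1.02 to -0.28), which missed the threshold in limma (adjusted p = 0.103). The second Sesn2 probe set had the same order, 348 and 188.5 in KO lines and 440.2 and 407 in cKO lines, and differed by -0.71 on the log2 scale (SE 0.29). Its adjusted p was 0.405 when each probe set was tested for itself.

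Trib3 encodes a pseudokinase that binds ATF4 and damps its activity, and its mRNA is among the most responsive to ATF4. Its brightest probe set read 739 and 995 in KO lines 1 and 2, against 697 and 1119 in cKO lines 1 and 2. The groups overlapped, and line 2 was above line 1 in each, with means of 867 ± 181 in KO and 908 ± 299 in cKO (SD, n = 2 each). For Trib3 the fitted difference was -0.04 on the log2 scale (95% interval -0.65 to 0.57, limma adjusted p = 0.971). The second probe set repeated the order, at 495 and 745 in KO lines and 457 and 835 in cKO lines.

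Chac1 encodes an enzyme that breaks down glutathione and is a target of ATF4 with ATF3 and CHOP. It was the member that differed most between lines of the same genotype. Chac1 read 714 and 1618 in KO lines 1 and 2, against 692 and 2462 in cKO lines 1 and 2. The means of 1166 ± 639 in KO and 1577.0 ± 1252 in cKO (SD, n = 2 each) came with wide SDs, and the groups overlapped. Its log2 fold change of -0.28 had a 95% interval from -1.67 to 1.12 (limma adjusted p = 0.903), too wide to bound a change in either direction. It turned to 0.31 without KO line 1 and to 0.63 without cKO line 2.

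The enzymes of amino acid synthesis come last, and by their brightest probe sets all 4 genes had both KO lines below both cKO lines, which 21.2% of tested genes had. The second probe sets of Asns and Psat1 overlapped between the groups. Cth encodes cystathionine gamma-lyase, which makes cysteine in the last step of transsulfuration. It lies at chr3:157894248-157925081 (GRCm38.p6) and has 1 probe set. Cth read 1977 and 2319 in the KO lines, against 4049 and 4715 in the cKO lines. The lines of each group lay close together and the groups far apart, at 2148 ± 241 in KO and 4382 ± 471 in cKO (SD, n = 2 each), so that Cth was 2.04-fold lower in KO. This is a log2 fold change of -1.03 (SE 0.15, 95% interval -1.38 to -0.68, limma adjusted p = 0.0228). With 1 array left out at a time its log2 fold change stayed between -1.14 and -0.91. Its adjusted p was then 0.00308 to 0.0359, with the same limit of 1 array in a group as for Atf3. The call ended with the arrays centred on their medians (-1.08, adjusted p = 0.058) and without the trend of variance on signal (-1.03, adjusted p = 0.0793). Its highest and lowest lines were 2.38-fold apart, and its nearest KO and cKO values 1.75-fold, so it was 1 of 2 members, with Atf3, at least 1.5-fold lower in every pair of a KO and a cKO line, as were 3.29% of all tested genes. None of the 10 was 2-fold apart in every pair, against 1.57% of all tested genes in either direction and 1.23% in the lower one.

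Phgdh and Psat1 encode the first and second enzymes of serine synthesis from a glycolytic intermediate. The brightest Phgdh probe set read 4096 and 4650.4 in KO lines, against 5021 and 6005 in cKO lines. The means were 4373 ± 392 in KO and 5513 ± 696 in cKO (SD, n = 2 each), 1.26-fold lower in KO, and the groups were separate by a margin smaller than the gap between the cKO lines. In limma Phgdh did not pass, being lower by a log2 difference of -0.33 (SE 0.14, adjusted p = 0.343). Its other 3 probe sets naming Phgdh alone also had both KO lines below both cKO lines, with log2 fold changes of -0.41, -0.39 and -0.13. For the last of these it was nearly a tie, with 1762 in KO line 2 and 1767 in cKO line 1. All 4 are of the type marked "x", whose probes can match other transcripts. A further 2 probe sets name Phgdh together with a predicted gene (Gm8096 or Gm6756) and were not members. The first read 2014 and 1849 in KO lines, against 2590.1 and 2579 in cKO lines, and the second overlapped between the groups.

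The brightest Psat1 probe set read 6642 and 6321 in KO lines, against 7836 and 8483 in cKO lines. The groups were separate, at 6481 ± 227 in KO and 8159.8 ± 457 in cKO (SD, n = 2 each), a log2 difference of -0.33 (SE 0.10, limma adjusted p = 0.201). The second probe set did not share this: it read 6450.2 and 7751.5 in KO lines, against 6686.6 and 7666.5 in cKO lines, a log2 difference of -0.02 (SE 0.13), whose adjusted p was 0.979 when each probe set was tested for itself.

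Asns encodes asparagine synthetase, whose promoter is a well-studied target of ATF4 and holds the core in capitals above. It read 5959 and 4903 in KO lines, against 6870.3 and 6521 in cKO lines. Both KO lines were lower, at 5431 ± 747 in KO and 6696 ± 247 in cKO (SD, n = 2 each), a log2 difference of -0.31 (SE 0.13, limma adjusted p = 0.346). On the second Asns probe set the groups overlapped, at 3831 and 3011 in KO lines and 4359.9 and 3603 in cKO lines. Across all 18 member probe sets above the filter, both KO lines lay below both cKO lines for 10, above them for 1 (Atf4) and overlapped with them for 7. The near tie of Phgdh is among the 10. Over all 18797 probe sets above the filter the shares were 19.7% below and 21.1% above, and probe sets of 1 gene are not independent.

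The lines of one genotype differed in several of these genes. Between the KO lines 2 genes were at least 1.5-fold apart (Chac1 and Atf3), and between the cKO lines 3 were (Chac1, Trib3 and Atf3). The background shares were 10.8% of tested genes for the KO lines and 9.81% for the cKO lines. In Chac1 the ratio of line 2 to line 1 was 2.27 in KO and 3.56 in cKO. Only 0.632% of tested genes were at least 1.5-fold higher in line 2 in both groups. By any margin, 5 of the 10 genes (Chac1, Trib3, Atf4, Phgdh and Cth) were higher in line 2 in both groups, against 33.7% of tested genes. For Trib3 these ratios were 1.35 in KO and 1.61 in cKO, and for Atf4 1.20 in KO and 1.47 in cKO. Ddit3 was at 0.93 in KO and 1.38 in cKO, so its line ratios had no common direction. Atf3 went the other way, at 0.47 in KO and 0.56 in cKO, a ratio at least 1.5-fold under 1 in both that 2.89% of tested genes showed. The labels do not say that lines of the same number share an origin, and there is 1 array per line, so these ratios carry no test.

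**Figure D3:**
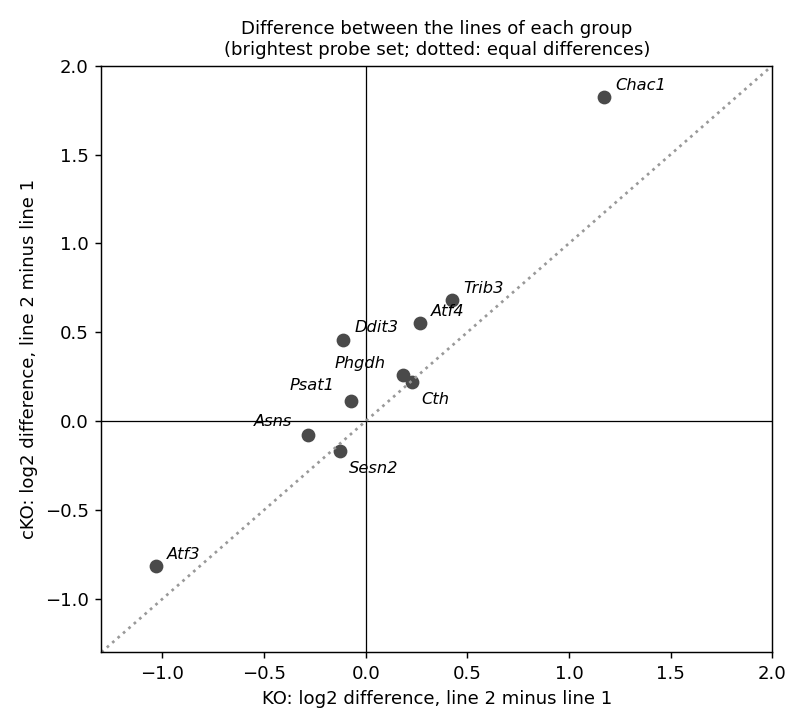
Log2 difference of line 2 minus line 1 on the log2(signal + pseudocount) scale, in KO (horizontal axis) and in cKO (vertical axis), for the brightest probe set of each of the 10 genes; the dotted line marks equal differences. Chac1 sits far up and right (1.17 in KO, 1.82 in cKO), Atf3 far down and left (-1.03 in KO, -0.81 in cKO), and the other 8 lie nearer the origin.

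The mean profile of the 10 genes, of log2 values centred over the 4 arrays, was -0.28 and -0.21 in KO lines 1 and 2, against 0.09 and 0.40 in cKO lines 1 and 2. Phgdh lay nearest to it among the members (Euclidean distance 0.18 over the 4 arrays) and Atf3 farthest (1.70). The 5 other tested genes nearest to the mean profile were Ptprn (distance 0.03), Septin3 (0.06), Gm13261 (0.06), Rasip1 (0.08) and Dgka (0.08). With 4 arrays many genes have such a profile, and the likeness is a description of these arrays.

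The rest of the pathway was read from 8 lists of related genes, in which no gene passed in limma over all tested genes. The lists too were chosen with earlier results of these data known, so their counts are a description. Among regulators of eIF2, which include its 4 stress kinases, the exchange factor eIF2B and the phosphatase subunits that end the response, 0 of 14 tested genes passed in limma, 0 had an unadjusted p under 0.05, 8 were negative and the median log2 fold change was -0.04. The members of smallest p were Eif2b5, a subunit of eIF2B (-0.32, adjusted p = 0.443), and Ppp1r15a, the stress-induced phosphatase subunit GADD34 (-0.32, adjusted p = 0.468). The kinases PERK (Eif2ak3, 0.21, adjusted p = 0.680) and GCN2 (Eif2ak4, 0.38, adjusted p = 0.476) had positive values, and were picked once their values were known. Of 7 other transcription factors of the response 0 passed in limma and 2 had an unadjusted p under 0.05, with a median of 0.12. Nupr1, a stress-induced chromatin protein, read 512 and 429 in KO lines, against 660 and 710 in cKO lines (-0.54, adjusted p = 0.217), and Nfe2l2, which encodes the oxidative stress factor NRF2, had 0.37 (adjusted p = 0.297). With its probe sets averaged Nfe2l2 was at 1.31 and passed (adjusted p = 0.035), so its probe sets disagreed in size.

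Of 18 other tested genes reported as ATF4 targets, 0 passed in limma, 3 had an unadjusted p under 0.05, 11 were negative and the median was -0.08. Pck2, the mitochondrial form of phosphoenolpyruvate carboxykinase, read 713 and 724 in KO lines, against 1071 and 1460.2 in cKO lines. Its groups were apart, by -0.80 on the log2 scale (SE 0.19, limma adjusted p = 0.0993). Ddit4, which encodes the mTORC1 inhibitor REDD1, read 1716 and 2021 in KO lines, against 2369 and 3934 in cKO lines (-0.71, SE 0.24, adjusted p = 0.240). Both depended on the cKO line used. With cKO line 1 left out Pck2 was at -1.02 (adjusted p = 0.0403) and Ddit4 at -1.08 (adjusted p = 0.0167), and with cKO line 2 left out Pck2 was at -0.57 (adjusted p = 0.395) and Ddit4 at -0.35 (adjusted p = 0.762). In this list 1 gene, Herpud1, a part of the degradation machinery of the endoplasmic reticulum, was at least 1.5-fold higher in line 2 in both groups, like Chac1, reading 345 and 522 in KO lines 1 and 2, against 363 and 632 in cKO lines 1 and 2.

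The amino acid transporters reported as ATF4 targets had the lowest median of the metabolic lists, -0.27, with 0 of 8 passing in limma, 3 at an unadjusted p under 0.05, 6 negative and 5 with both KO lines below both cKO lines. The shares over all tested genes, given above, were 13.8% at that p in either direction, 48.6% negative and 21.2% below both. Slc7a1, a carrier of cationic amino acids, read 1512 and 1541 in KO lines, against 2263 and 2468 in cKO lines (-0.63, SE 0.14, limma adjusted p = 0.0781), and was at -0.33 with its probe sets averaged (adjusted p = 0.670). Slc7a5, the light chain of the leucine carrier LAT1, read 3941 and 3655 in KO lines, against 4734 and 5356 in cKO lines (-0.41, adjusted p = 0.193). Of the 12 further enzymes of serine, glycine, one-carbon and transsulfuration metabolism 0 passed in limma, 1 had an unadjusted p under 0.05 and 6 were negative, with a median of -0.05. Mthfd2l, a mitochondrial folate enzyme, had 0.51 (adjusted p = 0.269) and Shmt1, the cytosolic serine hydroxymethyltransferase, 0.29 (adjusted p = 0.395). Cbs, which makes the cystathionine that Cth splits and was chosen as an example after its values were seen, read 303 and 286 in KO lines, against 318 and 399.9 in cKO lines (-0.27, adjusted p = 0.651). Of 19 cytosolic aminoacyl-tRNA synthetases, which charge tRNAs and many of which ATF4 induces, 0 passed in limma, 0 had an unadjusted p under 0.05 and 17 were negative, at a median of only -0.09. The lowest was Sars, the seryl-tRNA synthetase (-0.27, adjusted p = 0.373), followed in p by Nars, the asparaginyl one (-0.19, adjusted p = 0.551).

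The other arms of the unfolded protein response did not lean lower by their median. Of 19 tested genes of the ATF6, IRE1 and XBP1 arms 0 passed in limma, 2 had an unadjusted p under 0.05, 8 were negative and the median was 0.10. Both KO lines lay below both cKO lines for 4, Hspa5 among them, and above them for 2, Xbp1 and Dnajc3. Over all tested genes these shares were 21.2% and 21.4%. Xbp1, the transcription factor that IRE1 activates by splicing, read 5582 and 6859.7 in KO lines, against 4096 and 4524 in cKO lines (0.52, SE 0.14, limma adjusted p = 0.130). It was at 0.67 with KO line 1 left out (adjusted p = 0.0377) and at 0.37 with KO line 2 left out (adjusted p = 0.376). Dnajc3, a co-chaperone that inhibits eIF2 kinases, had 0.45 (adjusted p = 0.253). Hspa5, the chaperone BiP and the usual readout of stress in the endoplasmic reticulum, read 9413.5 and 9699 in KO lines, against 10594 and 10196 in cKO lines (-0.12, adjusted p = 0.652), and was chosen as an example after its values were seen. The immediate-early genes had the lowest median of all 8 lists, -0.41 over 10 tested genes, 8 of them negative. Of the 10, 2 had both KO lines below both cKO lines, beside 21.2% of all tested genes. In limma 0 of these immediate-early genes were called and 1 had an unadjusted p under 0.05. Their members of smallest p were Zfp36, an RNA-binding protein that speeds mRNA decay (-0.59, adjusted p = 0.177), and Btg2, an antiproliferative gene (-0.46, adjusted p = 0.377). Atf3 is itself often counted with these genes.

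**Figure D4:**
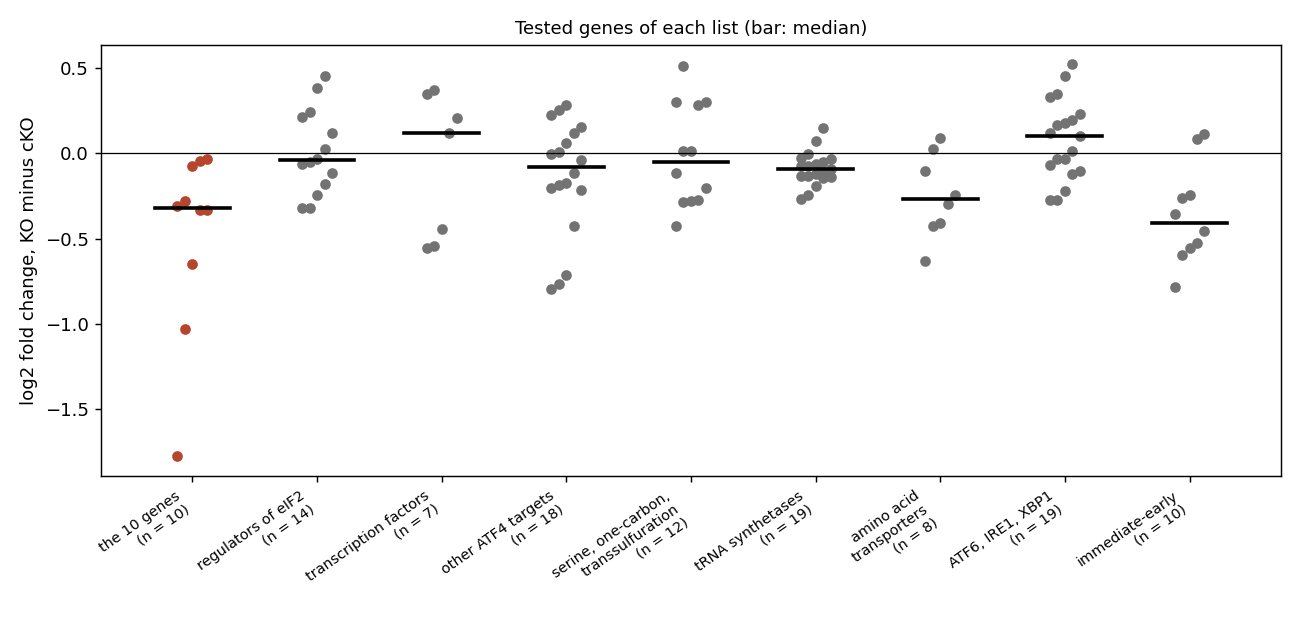
Log2 fold change, KO minus cKO, of every tested gene in the group of 10 (red) and in 8 related lists (grey), with black bars at the medians. The medians run from -0.41 (immediate-early genes) to 0.12 (other transcription factors), and the only gene past the adjusted threshold in these columns is Cth, at -1.03.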

How the data were processed

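The deposited table gives a linear intensity for each probe set on each array, the MAS5 signal named in the submitters' processing notes. Its version and settings are not given in the sources used here. Each array had a mean of 500 after trimming 2% from each end. Gene names came from the platform annotation, updated through Entrez identifiers in a RefSeq table (GRCm38.p6) for 34741 of 34945 probe sets naming 1 gene. The 64 control probe sets were left out.

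The probe set of highest mean log2 signal stood for each of 18193 genes, and the lower 40% (below 77.7) were left out, which kept 10916. Signals were converted to log2(signal + 4.79), the pseudocount being the 10th percentile of the table. Fold changes on this log2 scale understate differences of dim genes. The groups were compared in R 4.3.3 by limma 3.58.1 (lmFit, eBayes with a trend of variance), with Benjamini-Hochberg adjustment over all tested genes. Each gene had 2 residual degrees of freedom, and the trend over all genes added 5.13 prior degrees of freedom. The procedure was tested on simulated data. The text names Kdm6a, the 10 genes, the called or smallest-p members of each list, the 5 nearest profiles, and examples marked as chosen later. The 10 genes and the lists were chosen with earlier results of these data known. Plots used Python 3.11.15.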

Additional observations from a re-analysis of the deposited data

How the results depend on the processing

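Cth was called in 12 of 14 alternatives and its log2 fold change ran from -1.14 to -0.91. Over all genes, 240 were called with the settings as given, 147 without a filter, 154 with the lower 60% left out, 129 with probe sets of a gene averaged, 28 without the trend of variance, 428 at an adjusted p under 0.1, and 228 to 432 with 1 array left out. Of the 10 genes 1 was called, 0 without the trend, 2 at an adjusted p under 0.1 (Cth and Atf3), and 1 to 2 with 1 array left out. Of the 10, none was 2-fold apart in every pair, 2 were at a fold of 1.5, and 1 was with any 1 array left out, a choice made after seeing the data. That gene was Atf3 without KO line 1 or cKO line 2, and Cth without KO line 2 or cKO line 1. Without KO line 1 the remaining KO value of Atf3 was below the filter level. With the line number as a replicate block 1048 genes and 5 of the 10 were called, adding Atf3 (adjusted p = 0.0056), Sesn2 (adjusted p = 0.0135), Phgdh (adjusted p = 0.0349) and Psat1 (adjusted p = 0.0392). The labels do not pair the lines, so the numbers were not taken to pair them. Deviations of same-numbered lines from their group means correlated at 0.52 over genes, with 2 numbers only. Same-numbered arrays were thus alike in part, and the source of this likeness was not tested. Signs turned for 5 genes that were not called. With all probe sets of a gene averaged, those below the filter level included, Atf4 was at 0.36, Ddit3 at 0.053 and Eif2b5 at 0.24. For Ddit3 the brightest probe set was at -0.03 and the other, below the filter level, at 0.14. Of the further Atf4 probe sets 1 was above the filter level (0.48) and 1 below it (0.67). With 1 array left out at a time, Atf4 ran from -0.35 to 0.20 and Ddit3 from -0.26 to 0.20. Trib3 then ran from -0.38 to 0.30 and Chac1 from -1.19 to 0.63, and the cause of these turns was not tested. Signals below 77.7 are close to background and limit the size given for Atf3.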
